A study of Mus musculus with 6 samples.

Results

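The chemokine and chemokine receptor genes were followed in both mouse sections that were probed with the larger of the series' gene panels. These genes were chosen by symbol, as every gene on the panel named Ccl, Cxcl, Xcl, Cx3cl, Ccr, Cxcr, Xcr, Cx3cr or Ackr with a number. The rule found 48 of the 5050 genes on the panel, 27 of them ligands, 17 signalling receptors and 4 atypical receptors, and the rule itself used no measured value. Messenger RNA was imaged in place with Xenium, which counts single transcripts of a probed gene inside outlined cells.

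The larger panel was applied to a fetal liver of embryonic day 13.5 (E13.5) and to the bone marrow of an 89-week-old mouse, both wild type, untreated and of the C57BL/6 background. Both were fixed, paraffin-embedded tissue cut at 5 µm, and both lay on the same slide in the same run. The paper's methods describe adult femurs as fixed, frozen in gelatin and cryosectioned before the marrow was embedded in paraffin. Fetal livers were placed directly in formalin. A further 4 wild-type sections carried a smaller panel: an E14.5 fetal liver, a bone marrow of postnatal day 8 (P8), an untreated adult spleen, and a PHZ spleen. The last came from a mouse given repeated injections of phenylhydrazine (PHZ), which lyses red cells, at 40 mg/kg each. Each of the 6 conditions was represented by 1 section, so no spread between animals was available. All intervals below are 95% exact intervals that cover counting error only, and no p-value is given. Tissue, age and, by these methods, preparation changed together between the E13.5 fetal liver and the 89-week bone marrow and cannot be told apart.

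Chemokines are small secreted proteins that guide cells by way of receptors coupled to inhibitory G proteins. In blood-forming tissue Cxcl12, made by stromal cells, holds stem cells and precursors in place through Cxcr4. Atypical receptors bind chemokines without that signal and take them up or hand them on, and inflammatory chemokines call neutrophils, monocytes and lymphocytes out of the blood.

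After cells with fewer than 5 detected genes were left out, the fetal liver held 5254 cells and 1384754 gene transcripts, with a median of 191 per cell. The bone marrow held 140707 cells and 13044446 gene transcripts, with a median of 62 per cell. The sections shared 0 cell barcodes, and pairs that involve the other sections shared at most 6. The labels held against marker genes: all 7 hepatocyte genes on the panel were over 2-fold higher in the fetal liver, and all 9 B cell genes, all 11 T cell genes and all 6 neutrophil genes were over 2-fold higher in the bone marrow. Of 7 erythroid genes, 6 lay within 2-fold. Background counts were low but not 0. The highest of 40 negative control probes gave 1 transcript in the fetal liver and 18 in the bone marrow, and the highest of 21 genomic control probes gave 5 and 90. The mean negative control probe gave 0.1 and 2.78 transcripts, and the mean genomic control probe 1.62 and 46.6. As a share of all gene transcripts, both means were higher in the bone marrow. A gene at background alone would therefore also have the higher share there.

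Promoter sequences are shown for 3 members, with the genes found in their positive cells described further below. Ackr1, the atypical receptor that carries the Duffy blood group on human red cells, was detected with erythroid genes. Cxcl9 and Cxcl10, both interferon-induced ligands of Cxcr3, were detected together in 38 bone marrow cells, of 941 and 326 positive cells. Each line gives the RefSeq window from 250 bases before to 50 bases after the start of the gene, 5′ to 3′ on the gene's own strand, in build GRCm38.p6. The Ackr1 window lies on the minus strand at chr1:173333454-173333753, and capitals mark the GATA letters (AGATAA on either strand). The Cxcl9 window lies on the minus strand at chr5:92328030-92328329 and the Cxcl10 window on the minus strand at chr5:92348840-92349139. In both, capitals mark the interferon-stimulated response element letters (TTTC, any 2 bases, TTTC, on either strand).
Ackr1: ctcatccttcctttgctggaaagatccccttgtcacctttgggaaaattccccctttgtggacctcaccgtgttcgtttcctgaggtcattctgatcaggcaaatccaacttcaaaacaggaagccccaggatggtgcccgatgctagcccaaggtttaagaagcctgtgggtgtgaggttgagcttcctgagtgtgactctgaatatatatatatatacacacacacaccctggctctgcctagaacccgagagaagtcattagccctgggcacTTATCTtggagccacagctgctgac
Cxcl9: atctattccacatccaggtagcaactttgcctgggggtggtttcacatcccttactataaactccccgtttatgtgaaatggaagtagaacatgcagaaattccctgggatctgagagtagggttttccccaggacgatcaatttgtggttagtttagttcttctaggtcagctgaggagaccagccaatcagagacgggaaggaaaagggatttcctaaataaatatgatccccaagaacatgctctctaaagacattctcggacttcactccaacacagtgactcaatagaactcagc
Cxcl10: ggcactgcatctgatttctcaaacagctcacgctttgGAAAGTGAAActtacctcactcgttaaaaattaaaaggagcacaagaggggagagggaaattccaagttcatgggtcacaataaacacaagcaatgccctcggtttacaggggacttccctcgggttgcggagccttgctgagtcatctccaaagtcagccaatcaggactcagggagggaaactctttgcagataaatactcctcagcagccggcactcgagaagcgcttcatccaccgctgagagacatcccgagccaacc

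The Ackr1 window held the GATA letters 1 time, beginning 25 bases after the first base of the gene, as did 11.2% of all 32851 promoter windows in the table. The Cxcl10 window held the interferon-stimulated letters 1 time, as did 3.44% of all windows, and these letters were not in the Cxcl9 window. Windows were listed for 37 of the 48 members, in 39 windows, of which 7 held the GATA letters and 3 the interferon-stimulated letters.

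Summed over the 48 genes, the fetal liver gave 1864 transcripts, or 1346 (1286 to 1409) counts per 1000000 gene transcripts (CPM). The bone marrow gave 114390, or 8769 (8719 to 8820) CPM. At least 1 chemokine or receptor transcript was seen in 23.4% (22.3 to 24.6) of fetal liver cells and in 40.0% (39.7 to 40.3) of bone marrow cells. With every cell thinned to 50 transcripts, which left out 388 and 58188 shallower cells, the shares were 6.30% and 31.0%. The ligand Cxcl12 alone made up 61.3% of these transcripts in the fetal liver and 53.6% in the bone marrow. Without it, 521 CPM in the fetal liver stood against 4069 CPM in the bone marrow.

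Of the 48 genes, 37 were over 2-fold higher in CPM in the bone marrow, against 27.2% of all 4966 genes with at least 20 transcripts over both sections. Only 2, the atypical receptor Ackr3 and the eosinophil attractant Ccl24, were over 2-fold higher in the fetal liver, against 17.7% of all genes. The remaining 9 were not called past 2-fold. Among them Cxcl2 and Ccr4 had 0 fetal liver transcripts, so their folds have no upper limit. The median log2 fold of bone marrow over fetal liver was 2.42 for the members and 0.17 for all genes. The counting interval itself lay above 2-fold for 27 of the 37, and the share of all genes that pass this stricter rule was not counted. Ackr2, Ccl11, Ccl20, Ccr10 and Cxcl1 were among the 37 but did not exceed the highest genomic control probe in the bone marrow. Their intervals did not lie above 2-fold. Folds were called without taking off the background, which was higher in the bone marrow, and its part in the calls was not tested. Counted per cell instead of in CPM, 24 members were over 2-fold higher in the bone marrow, against 9.77% of all genes. In the fetal liver 7 were higher, while the median log2 fold of all genes moved to -1.34, itself past 2-fold toward the fetal liver. Under that count Ackr1, Ccl25, Ccl17, Ccl1 and Ccl21a passed 2-fold beside Ackr3 and Ccl24, as most genes of the panel did. In sections of tissue, fewer cells of a type and less RNA per cell cannot be told apart.

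**Figure D1:**
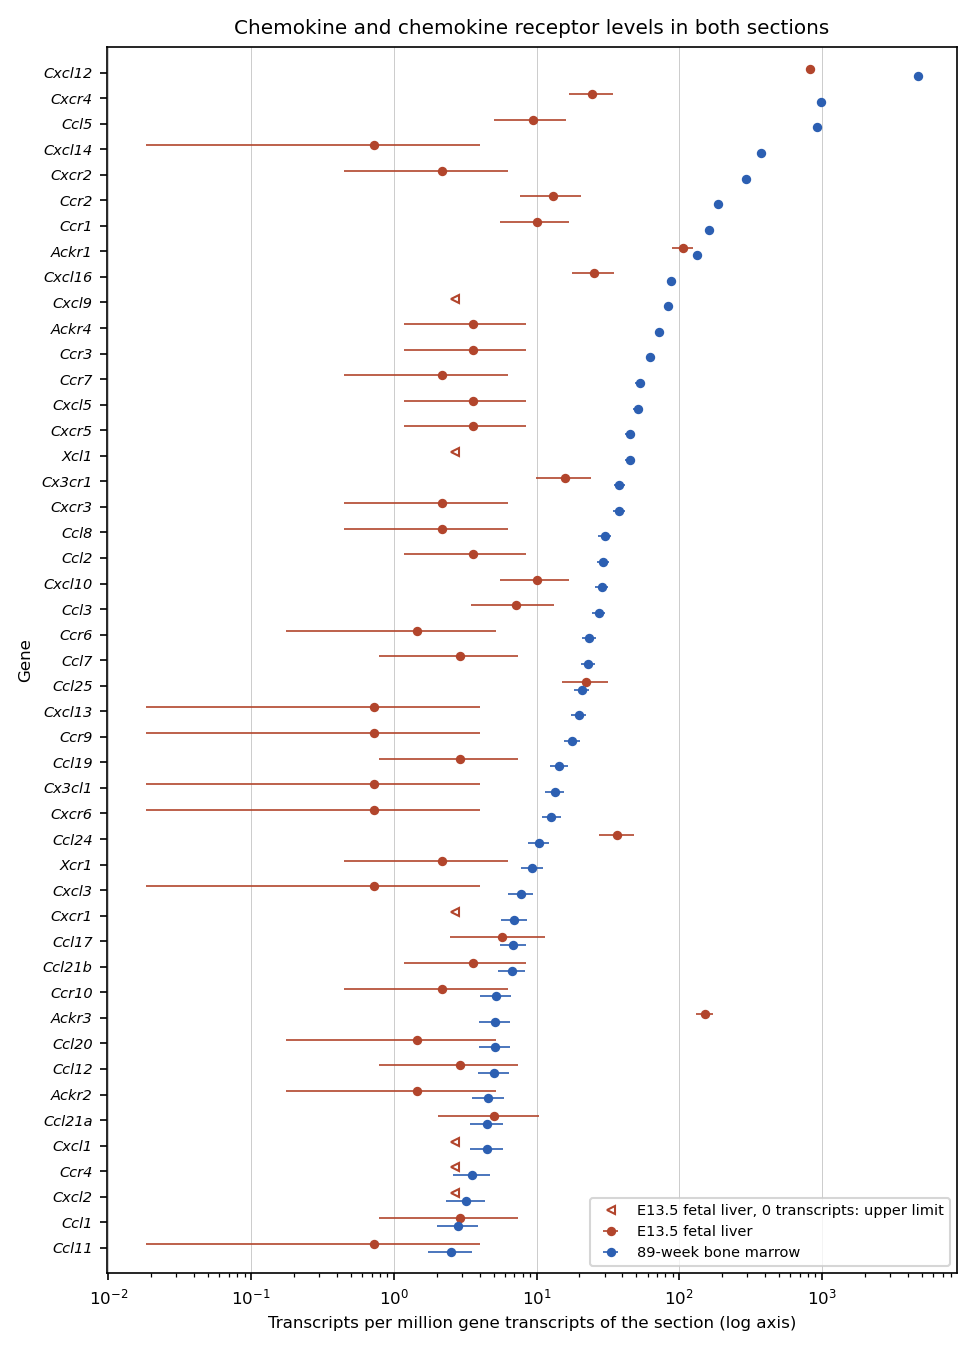
Level in CPM (log axis) of 47 of the genes in the E13.5 fetal liver and the 89-week bone marrow, 1 section each, ordered by the bone marrow level. Bars are 95% exact Poisson intervals and open arrows are upper limits for the 6 genes with 0 transcripts in the fetal liver, and only Ackr3 and Ccl24 are over 2-fold higher in the fetal liver. Levels of different genes cannot be set against each other, because probe numbers differ.

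Among the ligands Cxcl12, which retains blood precursors, was measured at 825 (778 to 875) CPM in the fetal liver and 4701 (4663 to 4738) CPM in the bone marrow, a fold of 5.69 (5.37 to 6.04). Cut into 4 areas of equal cell number, which are not replicates, the bone marrow section ranged from 4333 to 5207 CPM and the fetal liver from 711 to 950 CPM. The areas of one section did not overlap those of the other. Cxcl14, a ligand of stromal and epithelial tissue, showed the widest gap that could be estimated, with 1 transcript in the fetal liver and 4854, or 372 CPM, in the bone marrow. The fold of 515 rests on that 1 transcript, so its interval ran from 92.4 to 20357. Ccl5, which draws T cells and is stored by cytotoxic lymphocytes, was at 9.39 CPM on 13 transcripts and at 917 CPM, a fold of 97.7 (57.1 to 184).

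The interferon-induced ligand Cxcl9 had 0 transcripts in the fetal liver and 1082 in the bone marrow, at least 38.3-fold higher when 3 counts are taken as the floor of the fetal liver section, while the exact lower limit was 31.1-fold. Xcl1, made by natural killer (NK) and CD8 T cells, had 0 against 588, at least 20.8-fold higher against the same floor, with an exact lower limit of 16.9-fold. Neither ligand was seen in any of the 5254 fetal liver cells, which allows a share of cells with a transcript of up to 0.0571% by 3 counts and 0.0702% by the exact limit. Cxcl16, a membrane-bound ligand of macrophages and endothelium, was at 25.3 and 87.4 CPM, a fold of 3.46 (2.47 to 4.99). Cxcl5, a neutrophil attractant, was at 3.61 CPM on 5 transcripts and 51.4 CPM, a fold of 14.2 (6.07 to 44.02). The monocyte attractants Ccl2, Ccl7 and Ccl8 were at 3 to 5 transcripts in the fetal liver and at 29.4, 22.9 and 29.97 CPM in the bone marrow, and Ccl3 gave 10 and 355 transcripts.

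The other ligands over 2-fold higher in the bone marrow were sparser. Cxcl10 gave 14 and 374 transcripts, Ccl19 gave 4 and 189, Cx3cl1 gave 1 and 175, Cxcl13 gave 1 and 258, and Cxcl3 gave 1 and 101. Ccl20, Ccl11 and Cxcl1 were also past 2-fold, but their 67, 33 and 59 bone marrow transcripts did not exceed the highest genomic control probe of 90. Among the ligands within 2-fold, Ccl25 was level at 22.4 and 20.8 CPM, a fold of 0.93 (0.64 to 1.39) on 31 and 271 transcripts. Ccl1, Ccl12, Ccl17, Ccl21a and Ccl21b were within 2-fold at no more than 8 fetal liver and 90 bone marrow transcripts. For all of these the interval of the fold included 1, so no difference was detectable at this depth. Cxcl2, with 0 and 42 transcripts, was not called. Its fold had an exact lower limit of 1.16 and no upper limit.

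Ccl24, which attracts eosinophils through Ccr3, went the other way. It gave 51 transcripts or 36.8 (27.4 to 48.4) CPM in the fetal liver and 135 transcripts or 10.3 CPM in the bone marrow, a level 3.56-fold (2.53 to 4.95) higher in the fetal liver. Its 4 fetal liver areas ran from 11.5 to 53.5 CPM and its 4 bone marrow areas from 6.70 to 16.9 CPM, and these ranges overlapped.

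All signalling receptors except Ccr4 were over 2-fold higher in the bone marrow, 16 of 17, against 27.2% of all genes. Cxcr4, the receptor of Cxcl12, was at 24.6 (17.0 to 34.3) CPM on 34 transcripts in the fetal liver and at 986 CPM on 12865 transcripts in the bone marrow, a fold of 40.2 (28.7 to 58.0). Its 4 bone marrow areas lay between 935 and 1019 CPM. Cxcr2, the neutrophil receptor, gave 3 and 3820 transcripts, a fold of 135 (46.2 to 656). Ccr2, the receptor of inflammatory monocytes, was at 13.0 and 186 CPM, a fold of 14.3 (9.04 to 24.2). Ccr1, a receptor of myeloid cells, was at 10.1 and 163 CPM, a fold of 16.1 (9.56 to 29.5).

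The B cell receptors Cxcr5, Ccr7 and Ccr6 gave 5, 3 and 2 transcripts in the fetal liver and 594, 689 and 303 in the bone marrow. The T and NK cell receptors Cxcr3 and Cxcr6 gave 3 and 1 against 494 and 166. Ccr3 gave 5 against 819, Ccr9 gave 1 against 233, Xcr1 gave 3 against 122, Cxcr1 gave 0 against 91 and Ccr10 gave 3 against 68. Cx3cr1, a receptor of macrophages and monocytes among other cells, showed a smaller gap, at 15.9 and 38.0 CPM, a fold of 2.39 (1.56 to 3.85). Counted per cell the log2 fold of Cx3cr1 turned from 1.26 to -0.25. Ccr4, the receptor of Ccl17, gave 0 and 46 transcripts and lay below the highest genomic control probe in the bone marrow. Its fold had an exact lower limit of 1.27 and no upper limit.

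The 4 atypical receptors divided between the sections. Ackr3, which takes up Cxcl12, gave 209 transcripts or 151 (131 to 173) CPM in the fetal liver and 67 transcripts or 5.14 (3.98 to 6.52) CPM in the bone marrow, where it did not exceed the highest genomic control probe. Its level was 29.4-fold (22.2 to 39.3) higher in the fetal liver, where the 4 areas ran from 114 to 219 CPM against 3.96 to 6.46 CPM in the bone marrow. Ackr1 was near level, at 106 (89.7 to 125) and 133 (127 to 139) CPM, a fold of 1.25 (1.06 to 1.49). Counted per cell its log2 fold turned from 0.32 to -1.18. Ackr4, which clears Ccl19 and Ccl21, gave 5 and 943 transcripts, a fold of 20.02 (8.55 to 61.8). Ackr2, which clears inflammatory CC chemokines, gave 2 and 60 transcripts and did not exceed the genomic controls in either section.

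A list of 38 genes that work beside the family under other names held 27 on the panel. Of these, 21 were over 2-fold higher in the bone marrow, against 27.2% of all genes, and 1 in the fetal liver, against 17.7%. The median log2 fold was 2.15, against 0.17 for all genes. The platelet chemokines Ppbp and Pf4 were at 653 and 208 CPM in the fetal liver and at 7350 and 828 CPM in the bone marrow, folds of 11.3 (10.5 to 12.03) and 3.98 (3.54 to 4.49). The chemotactic peptide receptors Fpr1 and Fpr2 had folds of 24.9 (12.1 to 62.0) and 41.1 (25.3 to 72.0). Downstream, Gnai2, the main inhibitory G protein subunit of leukocytes, had a fold of 2.45, and Dock2, which drives leukocyte migration, a fold of 11.2. Gnai3, Gnb1 and Arrb1 lay within 2-fold, while Arrb2 had a fold of 3.82 (3.41 to 4.30). The gene higher in the fetal liver was Cmklr1, the chemerin receptor, by 3.81-fold.

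To see which cells carried each gene, 20 lists of lineage genes were counted in cells with at least 1 transcript of a member and in the remaining cells of the section, per 1000 other transcripts. Lists count genes, and the cells were not sorted into types. In the bone marrow all 48 members had at least 20 positive cells, and for 37 of them some list with at least 20 transcripts was raised at least 3-fold, against 38.1% of 4793 genes outside the lists. Among fetal liver genes 9 members had enough positive cells and 7 passed, against 39.3% of 3032 genes. The median of the leading fold was 4.20 for members and 2.36 for all genes in the bone marrow, and 7.88 and 2.46 in the fetal liver. In the bone marrow the positive cells of every member except Cxcl2, at 53, had a median depth above the 62 of the section. Against cells of matched depth, 35 of the 37 and 7 of the 7 stayed at or above 3-fold. The share of all genes against matched depth was not counted.

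**Figure D2:**
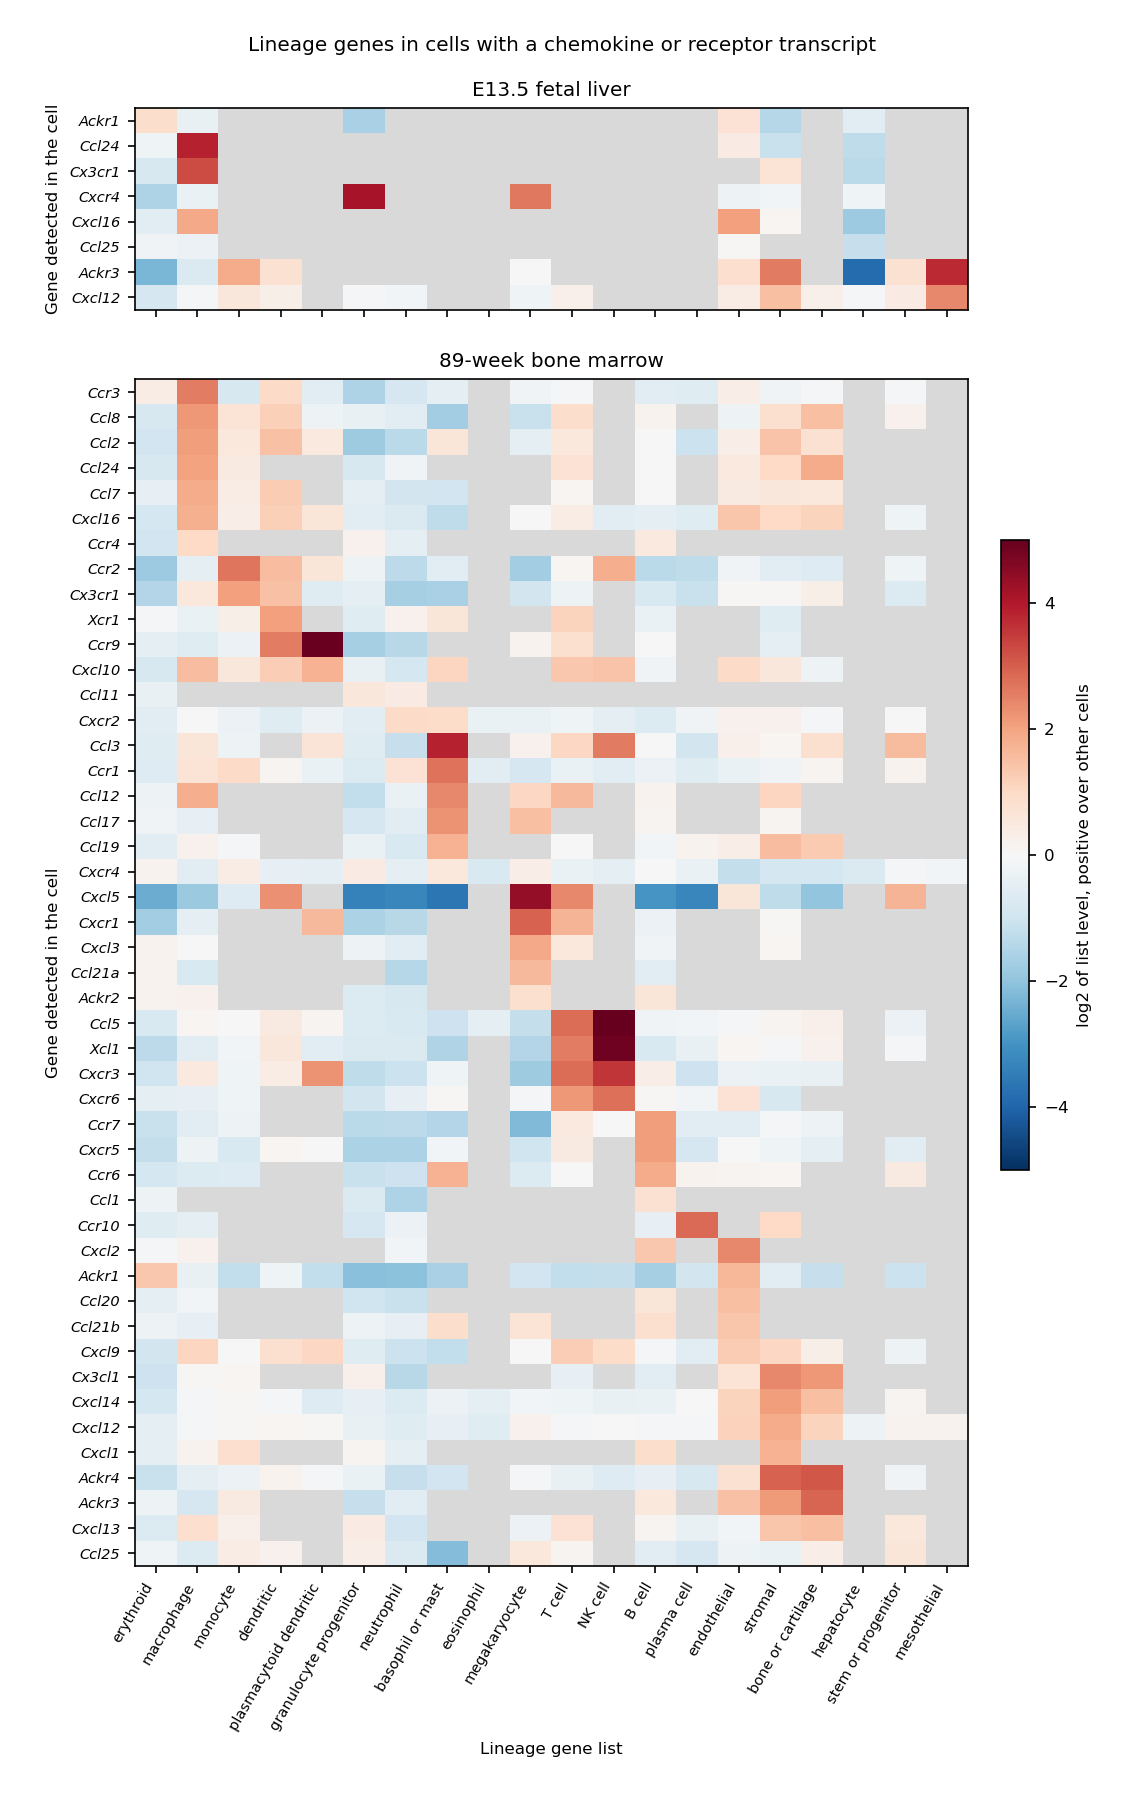
Log2 of the level of each lineage list (columns) in cells with at least 1 transcript of a gene (rows) over that in the other cells, for genes with at least 20 positive cells, in the E13.5 fetal liver and the 89-week bone marrow. Grey squares had fewer than 20 list transcripts, and the darkest squares join Ccl5 and Xcl1 to NK cell genes, Ccr9 to plasmacytoid dendritic genes and Cxcl5 to megakaryocyte genes.

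Cxcl12-positive cells of the bone marrow were marked by stromal genes. The stromal list was at 3.63 per 1000 in the 34061 positive cells and 1.00 per 1000 in the others, a fold of 3.62 (3.53 to 3.72). The leptin receptor Lepr, which marks the main stromal niche cell of marrow, was 6.32-fold higher, and the stem cell factor gene Kitl 4.69-fold. These grew with the number of Cxcl12 transcripts. Stromal genes stood at 1.00, 1.84, 4.48, 10.1 and 19.1 per 1000 in cells with 0, 1, 2 to 4, 5 to 9 and at least 10 Cxcl12 transcripts. Over the same classes Lepr ran from 113 to 4272 CPM, Kitl from 129 to 4139 CPM, Ebf3 from 40.04 to 3024 CPM and Cxcl14 from 161 to 3567 CPM. Cxcr4 ran the other way, from 1055 to 176 CPM. Not every gene of the stromal list climbed as steeply. Col1a1 ran from 163 to 352 CPM, and Ngfr from 8.91 CPM to 0 transcripts, which allows up to 54.1 CPM. The median depth of the classes climbed from 53 to 245. The richest class held 252 cells, 0.179% of all, and 5.26% of the Cxcl12 transcripts.

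**Figure D3:**
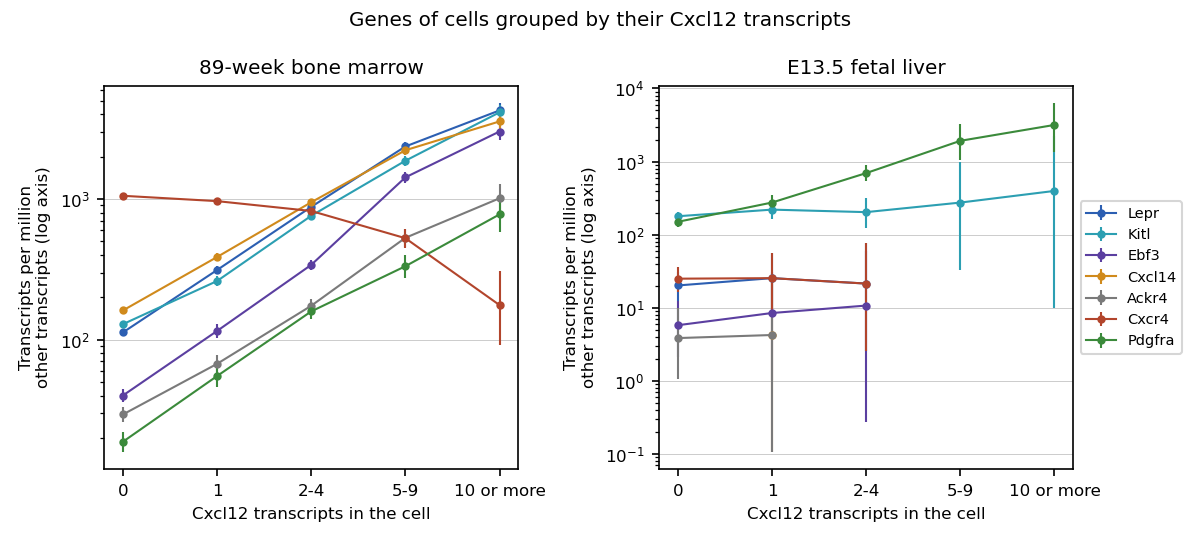
Level of named genes (in CPM of other transcripts, log axis) in cells grouped by their number of Cxcl12 transcripts, in the 89-week bone marrow and the E13.5 fetal liver, with 95% exact Poisson intervals and classes of 0 transcripts left out. In the bone marrow Lepr, Kitl, Ebf3, Cxcl14, Ackr4 and Pdgfra climb with Cxcl12 while Cxcr4 descends, and in the fetal liver Pdgfra climbs.

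Most Cxcl12 lay outside those richest cells. Of bone marrow cells with at least 3 stromal-list transcripts, 82.5% (80.7 to 84.1) had Cxcl12, at 20419 CPM and a median depth of 171. Of cells with at least 3 erythroid-list transcripts, a lineage not known as a source of it, 26.1% (25.6 to 26.6) had Cxcl12, at 3125 CPM and a median depth of 112.

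In the fetal liver the mesothelial list had the highest fold in the 821 Cxcl12-positive cells, at 5.26 (3.74 to 7.44), and 4.14 against matched depth. It rested on 96 transcripts, so most of these cells held none. Stromal genes had a fold of 2.85 (2.71 to 3.004). Stromal genes ran from 2.89 to 24.4 per 1000 between cells with 0 and with 5 to 9 Cxcl12 transcripts, the latter class being 11 cells. The median depths of these classes were 171 and 637. Pdgfra, a mesenchymal receptor, went from 150 to 1919 CPM over those classes. Lepr was at 20.1 CPM in cells without Cxcl12 and at 0 transcripts in the 11 cells with 5 to 9, which allows up to 506 CPM, so no difference was detectable there. Hepatocyte genes stayed at 23.9 to 24.9 per 1000 up to 4 transcripts and were at 6.17 per 1000 in cells with 5 to 9.

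The stromal side of the bone marrow held further members. Cxcl14-positive cells carried stromal genes 4.26-fold (4.12 to 4.40), with Ebf3 and Pdgfrb raised 6.60-fold and 5.98-fold. Cx3cl1-positive cells carried them 5.34-fold (4.75 to 5.99). Ackr4-positive cells carried bone genes 8.63-fold (7.93 to 9.36), led by the osteocalcin gene Bglap at 19.4-fold. The 64 Ackr3-positive cells, from transcripts that did not exceed the genomic controls, carried bone genes 7.51-fold (5.17 to 10.6), with Dmp1, an osteocyte gene, at 194-fold on 19 transcripts. In the fetal liver the 150 Ackr3-positive cells instead carried mesothelial genes 13.3-fold (9.48 to 18.6) and stromal genes 6.06-fold, with Upk1b and Fbln2 leading at 37.5-fold and 24.05-fold. There, 19.4% (16.3 to 22.8) of cells with at least 3 stromal-list transcripts had Ackr3, at a median depth of 373. At the same minimum the share was 9.22% (6.43 to 12.7) for the endothelial list, at a depth of 360.5. It was 2.59% (1.35 to 4.48) for the macrophage list at a depth of 250 and 0.539% (0.287 to 0.919) for the hepatocyte list at a depth of 241.5. Ackr3 and Cxcl12 met in 69 fetal liver cells, and Ackr3 was 2.98-fold (2.25 to 3.94) higher in Cxcl12-positive cells.

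Ackr1 accompanied erythroid and endothelial genes in the bone marrow and, more weakly, erythroid genes in the fetal liver. Its 1596 positive bone marrow cells carried endothelial genes 3.12-fold (2.90 to 3.35) and erythroid genes 2.52-fold. At least 2 erythroid-list transcripts were found in 1167 of these cells, or 73.1% against 25.5% of all cells. At least 2 endothelial-list transcripts were found in 197, or 12.3% against 1.68% of all cells, and only 45 cells had both. These shares depend on depth, and the Ackr1-positive cells had a median depth of 162.5 against 62 over all cells. In cells with at least 3 transcripts of a list, Ackr1 stood at 677 (569 to 800) CPM for endothelial genes, 280 (264 to 297) CPM for erythroid genes and 40.1 (29.0 to 54.0) CPM for B cell genes. Of the fetal liver, 135 of 140 Ackr1-positive cells had at least 2 erythroid-list transcripts, 96.4% against 75.2% of all cells, and erythroid genes were raised 1.84-fold (1.76 to 1.92). The median depth of these cells was 261.5 against 191 over all cells. That fold did not reach 3-fold and lay below the median leading fold of 2.46 over all genes tested there. Ackr1 was at 145 (122 to 171) CPM there in cells with at least 3 erythroid-list transcripts and 97.4 (76.6 to 122) CPM in those with hepatocyte genes. In fetal liver cells with endothelial genes, at the same minimum, it was at 94.3 (52.8 to 156) CPM on 15 transcripts.

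Macrophage genes accompanied several members. A total of 43 Ccl24-positive fetal liver cells carried the macrophage list at 46.6 per 1000 against 3.25 in other cells, a fold of 14.3 (13.3 to 15.5). Among the leading genes were Cd5l, Fcna, Marco and C1qa at 18.6-fold, 16.8-fold, 15.2-fold and 14.7-fold, all genes of resident macrophages. Cx3cr1-positive cells carried macrophage genes 9.68-fold (8.67 to 10.8). Ccl24 was present in 7.56% (5.32 to 10.4) of cells with at least 3 macrophage-list transcripts and in 0.456% (0.228 to 0.814) of those with 3 hepatocyte-list transcripts, at median depths of 250 and 241.5. Cxcl16-positive cells carried endothelial genes 4.19-fold (3.45 to 5.06) and macrophage genes 3.69-fold.

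Within the bone marrow the eosinophil receptor Ccr3 accompanied macrophage genes, with a fold of 5.97 (5.76 to 6.19) in 774 positive cells. The sialoadhesin gene Siglec1, the haemoglobin scavenger receptor gene Cd163 and Fcna were 9.66-fold, 9.60-fold and 6.60-fold higher. Ccr3 was at 318 (285 to 353) CPM in cells with at least 3 macrophage-list transcripts and at 33.6 (23.5 to 46.5) CPM in cells with at least 3 B cell-list transcripts. The eosinophil list, of 2 genes, gave 2 transcripts in Ccr3-positive cells, and none of the 141 cells with at least 3 eosinophil-list transcripts held Ccr3 (share up to 2.58% by its interval). Ccl24, Ccl2, Ccl7, Ccl8 and Cxcl16 also went with macrophage genes, at 4.02-fold, 4.29-fold, 3.64-fold, 4.46-fold and 3.45-fold.

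Several of these ligands were found in the same bone marrow cells. Ccl7 was 33.4-fold (22.4 to 48.3) higher in Ccl2-positive cells, with 20 cells holding both, and these are neighbouring genes on chromosome 11. Cxcl10 was 17.5-fold (13.0 to 23.3) higher in Cxcl9-positive cells, with 38 cells holding both. The interferon-induced gene Gbp2 was raised 8.53-fold in Cxcl9-positive and 10.8-fold in Cxcl10-positive cells. No lineage list reached 3-fold around Cxcl9, where endothelial genes led at 2.42-fold (2.14 to 2.73), followed by T cell genes at 2.37-fold and macrophage genes at 2.10-fold. Cxcl10 was also 18.2-fold (11.4 to 27.8) higher in Ccl2-positive cells.

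The lymphoid members that follow had fewer than 20 positive cells in the fetal liver and could be described in the bone marrow only. Ccl5-positive cells carried NK cell genes 31.8-fold (29.5 to 34.3) and T cell genes 6.92-fold, led by Gzma and Ncr1 at 51.6-fold and 41.8-fold. In cells with at least 3 NK-list transcripts 88.1% (82.7 to 92.3) had Ccl5, at 27624 CPM and a depth of 144, against 2.73% (2.54 to 2.92) and 377 CPM of cells with at least 3 erythroid-list transcripts. Xcl1-positive cells carried NK cell genes 29.5-fold (26.4 to 32.9), and 309 of 486, or 63.6%, also held Ccl5. Cxcr3-positive cells carried NK cell genes 11.8-fold and T cell genes 6.90-fold, with Cd8b1 and Cd8a at 18.1-fold and 16.1-fold. Cxcr6-positive cells, 158 in number, carried NK cell genes 6.68-fold (4.56 to 9.45).

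Ccr9, the gut homing receptor, was found with genes of plasmacytoid dendritic cells, the main interferon source, at 30.9-fold (28.0 to 34.1), with Siglech at 31.8-fold. That list rested on 2 genes.

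Cxcr5, Ccr7 and Ccr6, which position B cells in lymphoid tissue, carried B cell genes 4.25-fold, 4.31-fold and 3.65-fold, with Ighd raised 7.37-fold in Cxcr5-positive cells. Ccr10, the homing receptor of mucosal plasma cells, had 67 positive cells with plasma cell genes at 7.03-fold (5.61 to 8.70) and the IgA heavy chain Igha at 39.2-fold, although its 68 transcripts did not exceed the genomic controls. Xcr1, the receptor of Xcl1 on cross-presenting dendritic cells, carried dendritic genes 4.14-fold (2.65 to 6.17), with Clec9a at 7.20-fold on 10 transcripts.

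Myeloid receptors of the bone marrow accompanied genes of several lineages. Ccr2-positive cells carried monocyte genes 6.45-fold (6.22 to 6.68), led by Fn1 and S100a4 at 10.99-fold and 7.48-fold. Cx3cr1-positive cells carried the same list 4.15-fold (3.80 to 4.52), led by Ace at 12.5-fold, a gene of patrolling monocytes, and Ccr2 was 6.46-fold higher in them. Cxcr2-positive cells carried neutrophil genes 1.96-fold (1.92 to 1.99), with Il1b, Fpr1 and Mmp9 at 4.98-fold, 4.76-fold and 4.04-fold. The neutrophil list was already at 18.1 per 1000 in all other cells. Ccr1-positive cells carried basophil or mast genes 6.56-fold (6.28 to 6.84), with Mcpt8 and Prss34 at 6.79-fold and 6.51-fold, and neutrophil genes 1.63-fold. Of 2016 Ccr1-positive cells, 87 had at least 2 basophil or mast transcripts, or 4.32% against 1.15% of all cells, and 817 had at least 2 neutrophil transcripts, or 40.5% against 25.8%. Neither was found in 56.1%. The median depth of the Ccr1-positive cells was 79 against 62 over all cells. Ccl3-positive cells carried basophil or mast genes 14.6-fold (13.6 to 15.6).

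Cxcl5 accompanied megakaryocyte genes, though not these alone. Its 533 positive cells carried the 2 megakaryocyte genes of the list 21.1-fold (20.4 to 21.9), and 7.04-fold against cells of matched depth. Their median depth was 283 against 62 over all cells. Cxcl5 was at 791 (719 to 868) CPM in cells with at least 3 megakaryocyte-list transcripts and 18.1 (14.3 to 22.7) CPM in those with 3 erythroid-list transcripts. It was also at 910 (681 to 1190) CPM in 181 cells with dendritic and 652 (563 to 750.4) CPM in 1051 cells with T cell genes, at the same minimum. Cxcr1, a neutrophil receptor, was found with the same list at 7.67-fold (6.45 to 9.06), and at 4.39-fold against matched depth, with Itgb3 at 7.76-fold and Cxcl5 at 15.4-fold. Cxcr1 gave 91 transcripts in the bone marrow, barely above the highest genomic control probe of 90. Cxcl3-positive cells carried the megakaryocyte list 3.76-fold, and 2.90-fold against matched depth.

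Cxcr4 was detected across the lineages. In the bone marrow no list exceeded 1.45-fold in its 11285 positive cells, and it stood at 1356 CPM in cells with monocyte genes, 1295 CPM with B cell genes, 997 CPM with erythroid genes, 463 CPM with stromal genes and 399.5 CPM with endothelial genes, each over cells with at least 3 list transcripts. Other blood lineages lay between 481 CPM with dendritic genes and 1230.0 CPM with basophil or mast genes, and bone genes had the lowest at 378.6 CPM. Of the fetal liver, 31 Cxcr4-positive cells carried granulocyte progenitor genes 17.2-fold (15.1 to 19.4), with Elane and Ctsg at 37.6-fold and 23.8-fold, and megakaryocyte genes 6.21-fold. Ccl25, a thymic and gut ligand, was not led by any list in the fetal liver, at 1.03-fold (0.69 to 1.48), or in the bone marrow, at 1.504-fold (1.06 to 2.07).

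The remaining members of the bone marrow had 31 positive cells, for Ccl1, to 326, for Cxcl10, and are given by the list with the highest fold among those with at least 20 transcripts in the positive cells. Of these, Ccl19, Cxcl10 and Cxcl13 alone exceeded the highest genomic control probe. Ccl12, Ccl17 and Ccl19 went with basophil or mast genes at 5.33-fold, 4.78-fold and 3.33-fold. Among single genes, Mmp13 and Pdgfra led Ccl19-positive cells at 9.99-fold and 6.69-fold, ahead of Cpa3 of that list at 5.77-fold. Ccl7 and Cxcl9 led Ccl12-positive cells at 54.8-fold and 16.3-fold on 10 and 11 transcripts, ahead of Mcpt8 of that list at 7.76-fold. Cxcl1 went with stromal genes at 3.33-fold, Cxcl2 with endothelial genes at 5.31-fold on 20 transcripts and Cxcl10 with plasmacytoid dendritic genes at 3.31-fold. Ccl21a went with megakaryocyte genes at 3.07-fold, and at 2.51-fold against matched depth. No list with that many transcripts reached 3-fold for Cxcl13, Ccl20, Ccl21b, Ccr4, Ackr2, Ccl1 or Ccl11, whose highest folds ran from 1.48 for Ccl11 to 2.85 for Cxcl13.

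Ligands and their receptors were next compared by distance. For 26 pairs with both genes on the panel, the receptor level in cells within 30 µm of a ligand-positive cell was divided by that in all other cells, leaving out ligand-positive cells. For the fetal liver 21 pairs could be measured, but 19 of them had fewer than 10 receptor transcripts within that distance and all 21 intervals included 1. For the bone marrow the interval lay above 1 for 7 pairs and below 1 for 0.

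The highest folds belonged to Cxcr3 near both of its ligands. Near Cxcl9-positive cells Cxcr3 was at 56.4 CPM against 31.5 CPM elsewhere, a fold of 1.79 (1.48 to 2.16), and near Cxcl10-positive cells at 63.0 against 34.8 CPM, a fold of 1.81 (1.42 to 2.29). Folds at or above these were reached by 2.14% and 3.31% of all genes tested around the same cells, and intervals above 1 by 13% and 8.17%. Ccr2 was 1.41-fold (1.26 to 1.58) higher near Ccl7-positive cells, 1.28-fold (1.02 to 1.59) near Ccl12 and 1.24-fold (1.10 to 1.39) near Ccl2, where 8.29%, 8.78% and 9.43% of all genes had intervals above 1. Folds at or above these were reached by 9.19%, 25.5% and 17.3% of all genes. The interval of Ccr2 included 1 near Ccl12 at 15 µm, with a fold of 0.89 (0.52 to 1.43), and near Ccl2 at 60 µm, with a fold of 1.02 (0.94 to 1.11). Cxcr5 near Cxcl13 was 1.28-fold (0.98 to 1.66) higher at 30 µm and 1.99-fold (1.34 to 2.85) higher at 15 µm. The share of all genes around Cxcl13-positive cells was not counted, so whether that fold is unusual is not known. Cxcr2 around its ligand Cxcl5 was level at 1.01 (0.94 to 1.09), as was Ccr1 around Ccl3 at 0.98 (0.87 to 1.11).

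**Figure D4:**
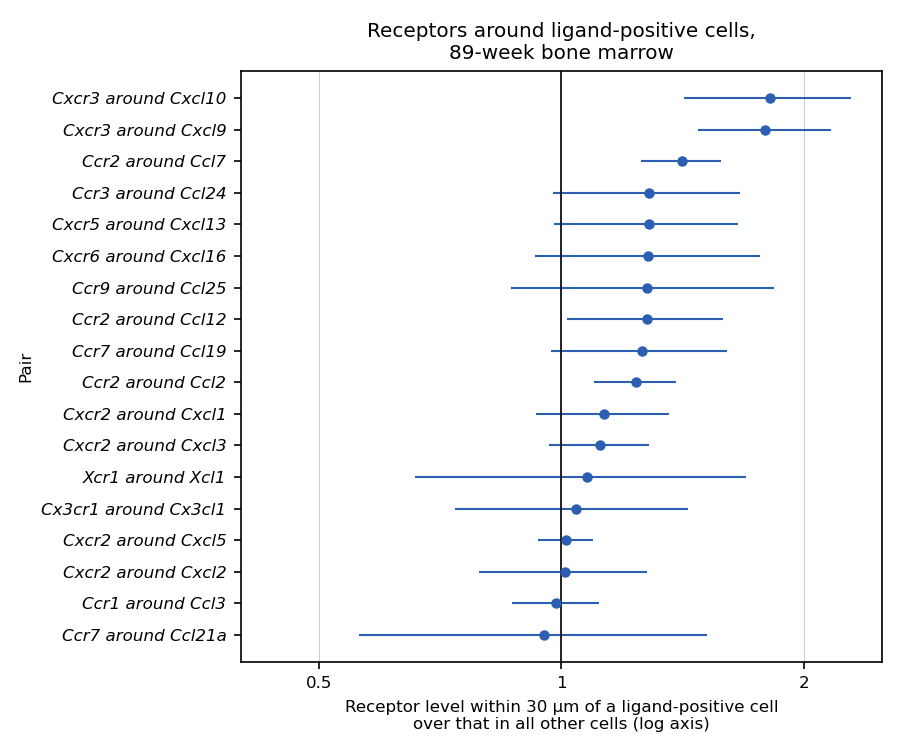
Receptor level within 30 µm of a ligand-positive cell over that in all other cells of the 89-week bone marrow (log axis), with 95% exact intervals, for 18 pairs with at least 10 receptor transcripts nearby and at least 1000 cells beyond. Cxcr3 lies farthest right, around Cxcl10 and Cxcl9.

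Cxcl12 was too widespread for this comparison, since only 124 bone marrow cells and 29 fetal liver cells without Cxcl12 lay beyond 30 µm. Around the 252 bone marrow cells with at least 10 Cxcl12 transcripts, a source chosen after the data were seen, Cxcr4 was at 952 CPM within 30 µm and 996 CPM beyond, a fold of 0.956 (0.904 to 1.01). In rings of up to 10 µm, 10 to 20 µm and 20 to 30 µm around them Cxcr4 was at 836, 881 and 1025 CPM. At 30 to 50, 50 to 100, 100 to 200 and beyond 200 µm it was at 1039, 996, 992 and 939 CPM. In the inner rings up to 30 µm Cxcl12 stood at 7881, 4620 and 4552 CPM and Cxcl14 at 620, 362 and 308 CPM. There the stromal list stood at 3445, 1610 and 1720 CPM and the erythroid list at 16926, 22380 and 24718 CPM. The part of cell composition in the Cxcr4 values was not tested.

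The smaller panel held 19 genes of the family, of which 17 were shared and Ccl4 and Ccl9 were not on the larger panel. Its 4 sections held 50523 to 117323 cells, and the levels are given in CPM of the 233 genes common to both panels. PHZ spleen differed from untreated spleen past 2-fold in 12 of 19 genes, 8 higher and 4 lower, against 13.8% of all genes of that panel higher and 27% lower. The genes that were higher were all ligands. The neutrophil attractants Cxcl2 and Cxcl1 were at 149.6 CPM untreated and 2338 CPM with PHZ, 15.6-fold (14.6 to 16.8) higher, and at 121 and 601 CPM, 4.97-fold (4.57 to 5.41) higher. The monocyte attractants Ccl7, Ccl2 and Ccl12 were 11.4-fold, 11.03-fold and 6.45-fold higher, and Ccl9, Ccl3 and Ccl4 were 8.14-fold, 3.34-fold and 2.98-fold higher.

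The receptors Cxcr5 and Ccr2 and the ligand Ccl5 were past 2-fold lower in PHZ spleen. Cxcr5, the B cell follicle receptor, was at 16516 CPM untreated and 2077 CPM with PHZ, 7.95-fold (7.80 to 8.11) lower. Ccl5 was at 22597 and 4155 CPM, 5.44-fold lower. Ccr2, the receptor of Ccl2 and Ccl7, was 3.45-fold lower. Cxcl10, Cxcl13, Cxcl16, Cxcr2, Ccl8, Ccl11 and Ackr3 lay within 2-fold. The part of changed cell composition in these differences was not tested.

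Between the E14.5 fetal liver and the P8 bone marrow, which share a slide, 9 of 19 genes passed 2-fold. Cxcl10, Cxcl1 and Ccl9 were higher in the fetal liver, by 6.71-fold, 2.86-fold and 2.31-fold, against 18.7% of all genes. Cxcr2, Cxcr5, Ccl5, Ccl7, Ccl11 and Ackr3 were higher in the bone marrow, against 33.3% of all genes, and Cxcr2 led at 9.22-fold (8.80 to 9.66). Ackr3 was at 643 CPM in the E14.5 fetal liver and 1339 CPM in the P8 bone marrow, 2.08-fold higher in the bone marrow. This is opposite in direction to the E13.5 fetal liver and the 89-week bone marrow. Cxcl10 was also opposite in direction, at 134 CPM of the shared genes in the E13.5 fetal liver and 287 CPM in the 89-week bone marrow. Its fetal liver level rested on 14 transcripts, with areas from 0 to 27.9 CPM of all genes. Cxcl1 gave 0 transcripts there and 59 in the 89-week bone marrow, but these 59 did not exceed the highest genomic control probe of 90. Ages, panels and software differ between these pairs, and the difference between them was not tested.

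**Figure D5:**
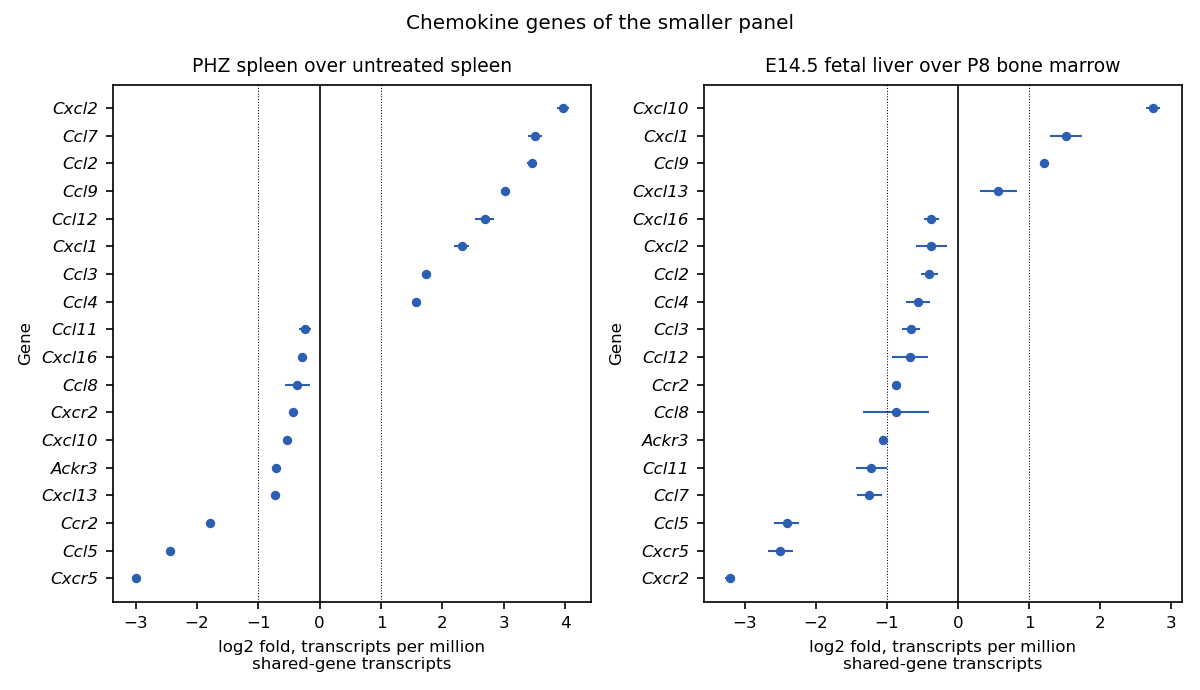
Log2 fold with 95% exact intervals of 18 genes of the smaller panel, for PHZ over untreated spleen and for E14.5 fetal liver over P8 bone marrow, in CPM of shared genes, with dotted lines at 2-fold. Cxcl2, Ccl7 and Ccl2 lie farthest right in PHZ spleen and Cxcr5 and Ccl5 farthest left.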

How the data were processed

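Per the labels and run descriptions, 6 sections of 5 µm were imaged with Xenium, and the authors deposited counts of decoded transcripts per gene and segmented cell, not normalized, 1 section per condition and none pooled. Xenium Onboard Analysis 3.1.0.4 processed the 5050-gene sections, with 5006 predesigned and 44 custom genes, and version 1.7.1.0 the sections of the smaller panel. Deposited cell positions are in µm, a kind of value other than counts. Genome build and aligner are not given in the sources used here.

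Cells with at least 5 detected genes were kept. Levels are CPM of all gene transcripts. Probe design matters: 39 members had 2 codewords, and Ccl5, a custom gene, had 5, so folds were taken within a gene. Sums over the family, the share of Cxcl12 and the ranking by CPM still mix genes with unlike probe numbers. Counts carry exact Poisson intervals, shares exact binomial (Clopper-Pearson) and folds exact conditional binomial intervals at 95%, for counting error only. Folds needed 20 transcripts over both sections and were called past 2-fold, and a count of 0 was set to a floor of 3 counts over the section. Lists needed 20 list transcripts and 20 positive cells. Members named in full were those with the 15 highest CPM in either section, those past 2-fold, both genes of a pair, and those at or below the highest negative control probe. The members and lists were chosen with earlier results of these data known. Results of 1 member are not reported here, and counts over the family include it. All 48 symbols matched RefSeq, which gave the promoter windows. Python 3.11.15 with numpy 2.4.6, pandas 2.3.3 and scipy 1.17.1 was used, without clustering of cells, and the fold and co-detection steps were tested on simulated data. The simulated folds covered genes with an expected fetal liver count of at least 20, while most members had fewer transcripts there. The simulated co-detection gave positive and other cells the same depth, unlike the data. Cells were not checked for doublets, and cell outlines can hold transcripts of neighbours. Alternatives included all cells, other scalings, thresholds and radii, and, chosen after seeing the data, a genomic control subtraction and Cxcl12-rich source cells.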

Additional observations from a re-analysis of the deposited data

How the results depend on the processing

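Counted per cell instead of in CPM, 24 members were over 2-fold higher in the 89-week bone marrow, against 9.77% of all genes. In the E13.5 fetal liver 7 were higher, while the median log2 fold of all genes, at -1.34, was itself past 2-fold toward the fetal liver. The log2 fold of Cx3cr1 turned from 1.26 to -0.25, because the fetal liver cells held more transcripts each. At 4-fold, 26 members stayed higher in the bone marrow, against 13.6% of all genes. In the fetal liver 1 stayed higher, and the share of all genes there was not counted. The share of cells with at least 2 member transcripts was 6.70% in the fetal liver and 17.5% in the bone marrow, and thinning to 50 transcripts gave 6.30% and 31.0%. After thinning 2 members, against 7 before, had over 2 times the share of positive cells in the fetal liver. All genes were not counted this way, so these numbers describe the effect of depth and not a trait of the family. The summed bone marrow level was 8676 CPM in cells with at least 20 transcripts and 8598 CPM with the mean genomic control probe taken off each member, an alternative chosen after seeing the data. With positive cells defined by at least 2 transcripts, only 2 and 24 members had 20 such cells, and 2 and 21 had a list at 3-fold in the fetal liver and bone marrow. The share of all genes under that definition was not counted. The fold of Cxcr4 around Cxcl12-positive cells of the fetal liver was 0.13 (0.021 to 5.26) at 30 µm and 5.47 (0.90 to 225) at 15 µm, which no depth here could settle, and 60 µm gave no fold. In the bone marrow it was 0.78 at 30 µm and 1.18 (1.03 to 1.36) at 15 µm. The share of all genes around Cxcl12-positive cells was not counted. The other counts of members, including those of the smaller panel, stayed within 1.5 times. No paired analysis was possible because each condition had 1 section, and no replicate could be left out. The total of transcripts limits the fetal liver, where 32 of 48 members did not exceed the highest genomic control probe and 13 did not exceed the highest negative control probe. In the bone marrow 13 members did not exceed the highest genomic control probe. The share of all panel genes at or below these probes was not counted, so these counts do not show whether the family is sparser than the panel.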

Other observations

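Some single genes led the cells of a member without belonging to any list, and they are given as values only. Gfap, an intermediate filament gene, was 2.46-fold higher in Ackr1-positive cells of the fetal liver on 14 transcripts and 3.24-fold higher in those of the bone marrow on 158 transcripts. Cxcl5-positive cells of the bone marrow were led by Ly6g6d at 48.5-fold, the dopamine transporter gene Slc6a3 at 33.1-fold and the neuronal transcription factor gene Npas4 at 32.9-fold. The serotonin transporter gene Slc6a4, which platelets use, followed at 23.6-fold in the same cells. In the fetal liver the 31 Cxcr4-positive cells also carried Alox15 at 36.6-fold on 20 transcripts.

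Across the 4 areas of the bone marrow section, Xcl1 ranged from 30.5 to 60.2 CPM, while Cxcl16 ranged from 84.4 to 89.6 CPM. Col14a1, a fibroblast collagen gene, was 15.8-fold higher in Ccl2-positive, 11.8-fold in Ccl7-positive and 15.5-fold in Ccr3-positive cells of the bone marrow. Mmp13, a collagenase gene, was 8.13-fold higher in Cxcl13-positive and 9.99-fold higher in Ccl19-positive cells.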
